A study of Homo sapiens with 6 samples.

Results

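Readthrough genes are annotated transcription units that join 2 neighbouring genes on the same strand, and they carry the names of both, as in NME1-NME2. They were taken here as the rows of the deposited expression table whose name holds a hyphen, does not begin with MT- or HLA-, and has on at least 1 side of the hyphen the name of another row. The rule found 56 of the 12154 listed genes. Of these, 43 had both neighbours listed and 11 had 1 neighbour listed. The other 2 (NCBP2-AS2 among them) had antisense names and lay on the strand opposite to their partner. They are not readthrough genes and were set apart. The rule used names only and no measured value.

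A gene normally ends where the nascent RNA is cleaved and polyadenylated, after which RNA polymerase is released from the template. When cleavage fails or is passed over, transcription can continue into the next gene, and splicing can then join an exon of the upstream gene to an exon of the downstream gene. Some such RNAs encode fusion proteins, and others carry an early stop codon and are substrates of nonsense-mediated decay, the pathway that removes mRNAs with premature stop codons.

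The libraries came from lung adenocarcinoma cells, 3 from cells transfected to overexpress AS-tDR-007333, a fragment derived from a transfer RNA (OE), and 3 from control cells (NC). The labels named A549 cells given a plasmid for the fragment or the empty vector, while the methods named another lung line, PC9, harvested 48 h after transfection. The cells are therefore called here by the group only. Whether libraries within a group were grown as separate cultures was not stated, so p-values rest on library-to-library spread that could be technical only. The overexpressed fragment has no row in the table and could not be checked. Epithelial markers were abundant in all 6 libraries. EPCAM was at 153 to 168 FPKM (fragments of a transcript per kilobase, scaled to the mapped fragments) and KRT8 at 148 to 187 FPKM. CDH1, another epithelial marker, varied more, at 34.6 to 69.7 FPKM. The leukocyte marker PTPRC, the endothelial marker PECAM1 and ALB had no row. COL1A1, looked up with them as a marker of other cells, was listed at 5.09 to 6.1 FPKM. CDKN2A, a cell cycle inhibitor that is deleted in A549 cells, was listed at 9.84 to 17.5 FPKM. CDKN2B, deleted in A549 cells too, was at 14.3 to 16.9 FPKM. AKR1B10 and AKR1C1, looked up as genes high in A549 cells, were at 152 to 163 and 90.2 to 98.1 FPKM. Which line was used was not tested. The listed FPKM summed to between 197324 and 202921 per library, and the number of reads behind them is unknown.

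What distinguishes a readthrough RNA from its neighbours is the splice junction between the genes. The sequences of the 9 loci that the results turn on are shown from the GRCh37 genome at junctions of GENCODE release 44, with the last 15 bases of the upstream exon in lower case and the first 15 bases of the downstream exon in capitals. IQCJ-SCHIP1 has no annotated intron from an exon of IQCJ directly to one of SCHIP1, so the junction shown runs from an exon of the readthrough gene itself into SCHIP1.
TVP23C-CDRT4: acagtaaagtggctgGAATCTGAACCTGTG
BIVM-ERCC5: cagcaggagaaactgACTATACTTGTAGCA
PRR5-ARHGAP8: ttcgcttctatgaggAGCTGCAGAGAGACA
SENP3-EIF4A1: ctgcaaactcactgtCCAGGGGAATCCTCC
TMEM189-UBE2V1: tctgcatcaccacagGAGTAAAAGTCCCTC
IQCJ-SCHIP1: accaactccacctccGCACAGAAAAATGAG
TM4SF19-TCTEX1D2: ttctacaaggagtggGTTCAGGCCCTCTGT
HSPE1-MOB4: ggttctaaaggaaagGATTTCTATAATTGG
TEN1-CDK3: aaagccgaggggcggGCAGCTCTGTGGCCA
The introns that these junctions remove lie at chr17:15343600-15449098 (minus strand), chr13:103474510-103501467 (plus), chr22:45122515-45182336 (plus), chr17:7474798-7475601 (plus) and chr20:48713358-48744511 (minus). Those of the other 4 loci, shown for their differences between OE and NC, lie at chr3:159482928-159583951 (plus), chr3:196043103-196050614 (minus), chr2:198365963-198388347 (plus) and chr17:73996471-73997492 (plus). Each of the 9 introns begins with GT and ends with AG. Several such introns are annotated in TVP23C-CDRT4 (3), BIVM-ERCC5 (3), PRR5-ARHGAP8 (2) and IQCJ-SCHIP1 (3), and only the best-ranked is shown. The ranking took splice sites shared with the neighbours first and then the number of transcripts. The acceptor shown for SENP3-EIF4A1 is not one that annotated EIF4A1 transcripts use. Likewise, the donor shown for TEN1-CDK3 is not one that annotated TEN1 transcripts use.

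The annotation shows how little sequence a readthrough gene has of its own. In the deposited coordinates, 43 of 43 members with both neighbours listed overlapped both of them on the same strand. The median distance between those neighbours was 3308 bp, the longest was 65302 bp, and 5 pairs overlapped each other. In GENCODE 44, 53 of the 54 readthrough genes were found, 50 of them with both neighbours, and a median of 4.21% of a member's exon bases lay outside the exons of both neighbours. That share was under 10% in 36 members and 0 in 14 members, among them NME1-NME2, TMEM189-UBE2V1 and HSPE1-MOB4. It was highest in BOLA2-SMG1P6, at 71.1%. A direct joining intron was annotated for 45 members, 44 of them GT-AG, with lengths from 784 to 105499 bp and a median of 11994 bp. In 32 of these, both splice sites were also used by the neighbours themselves. Reads outside the junction and outside the private exons cannot be told apart between a readthrough gene and its neighbour, and how the deposited values divided such reads was not tested.

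Most readthrough genes were listed at low levels. In bulk RNA, a level cannot tell fewer expressing cells from less RNA per cell. A mean of at least 1 FPKM was reached by 38 of the 56 members and 94 of the 98 components, the component genes being the neighbours that have a row. The 5 members with the highest mean were NME1-NME2, SENP3-EIF4A1, NCBP2-AS2 (an antisense name), TMEM189-UBE2V1 and BOLA2-SMG1P6. NME1-NME2 joins 2 nucleoside diphosphate kinase genes and was listed at 90.3, 78.5 and 61.6 FPKM in the NC libraries and 85.8, 67.9 and 86.1 FPKM in the OE libraries. It was higher than either component in all 6 libraries, since NME1 stood at 11.02 to 13.2 FPKM and NME2 at 35.1 to 54.7 FPKM. Of its exon bases, 51.4% are shared with NME1 and 48.6% with NME2, and the kinase genes are close in sequence. How reads were divided between these rows was not tested. BOLA2-SMG1P6, which joins the gene of an iron-sulfur cluster protein to a pseudogene, was listed at 11.5, 9.07 and 10.2 FPKM in the NC libraries and 10.6, 9.06 and 9.11 FPKM in the OE libraries. Its component BOLA2, which exists in near-identical copies, was listed at 9.22 to 11.6 FPKM, and the pseudogene has no row. NCBP2-AS2 lies on the strand opposite to NCBP2, the gene of a cap-binding complex subunit, without overlapping it. It was listed at 12.2 to 14.8 FPKM and NCBP2 at 20.6 to 27.1 FPKM.

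The spread between the 6 libraries was wide for the readthrough genes. Over the 54 members without an antisense name, the coefficient of variation (SD divided by the mean, over the 6 libraries) ranged from 10.3% for BOLA2-SMG1P6 to 232% for C1QTNF3-AMACR, with a median of 47.5%, against a median of 15.3% for the components. Among the 38 members with a mean of at least 1 FPKM, 24 (63.2%) had their highest library at least 2-fold over the lowest, against 7.80% of the 11042 genes at that level. The gap held within bands of expression level. At 1 to 2 FPKM the 2-fold range was reached by 11 of 12 members and 14.0% of other genes, at 2 to 5 FPKM by 9 of 16 members and 9.36% of other genes, and at 5 FPKM or more by 4 of 10 members and 5.32% of other genes. In 8 members at least 1 library was listed at exactly 0. No listed gene averages under 0.5 FPKM in both groups. A row near 0 in most libraries is therefore listed only where another library is high. The wide spread of such rows was thus set in part by which genes are listed.

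**Figure D1:**
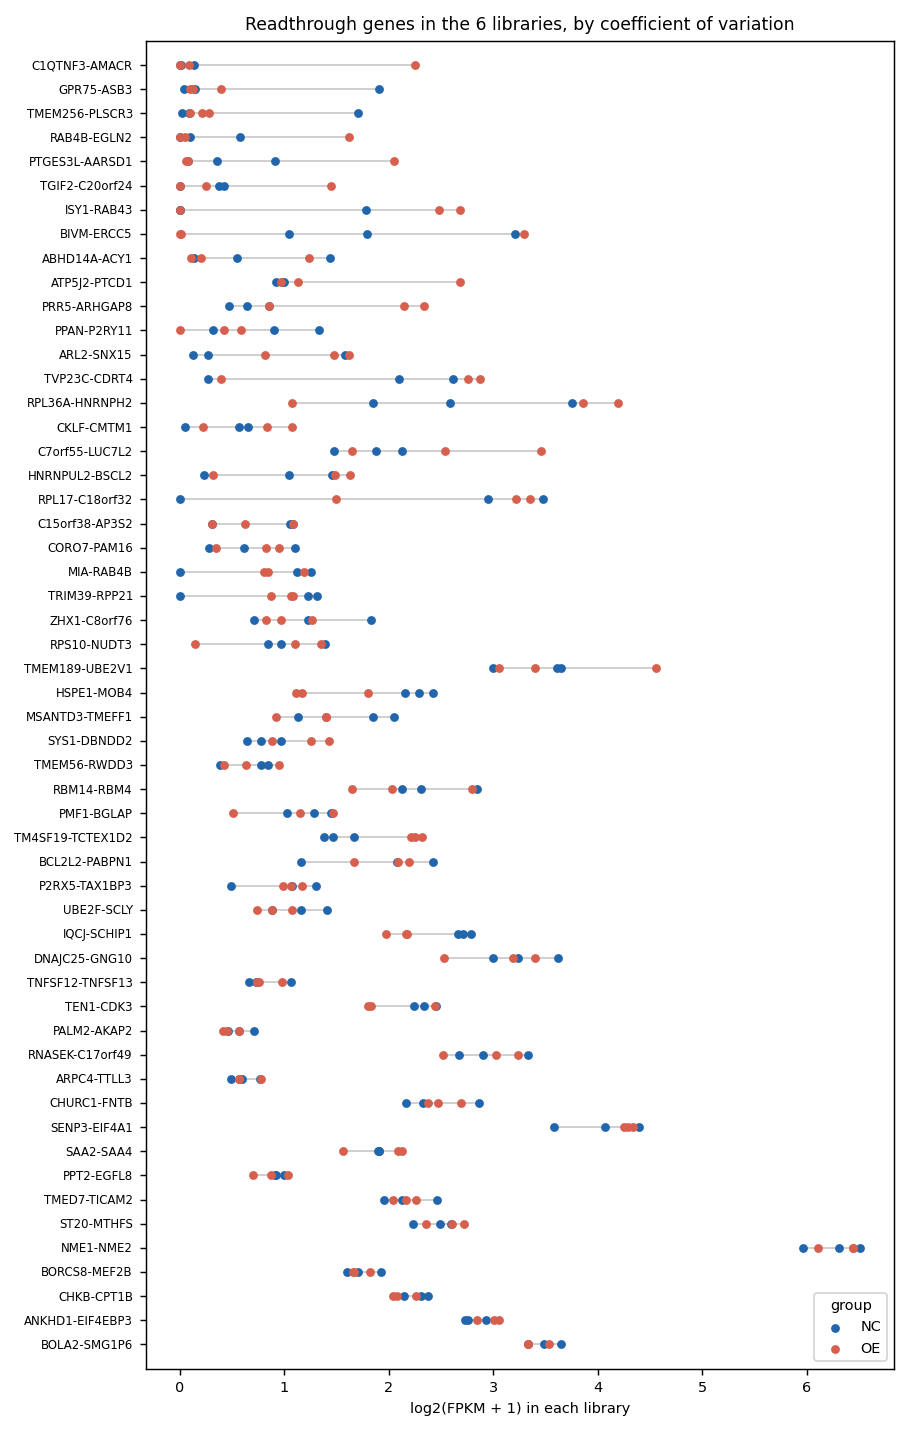
log2(FPKM + 1) of the 54 readthrough genes in the 3 NC libraries (blue) and the 3 OE libraries (red), ordered by coefficient of variation. The genes at the top, such as C1QTNF3-AMACR at 232%, are near 0 in most libraries and high in 1, and the points of each group spread over most of the line for many genes.

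When each readthrough gene was added to its listed components, the sum was far steadier. The coefficient of variation of the summed FPKM was lower than that of the readthrough gene in 54 of 56 members (52 of 54 without the antisense names). The median fell from 47.5% to 9.01%, and in 38 of the 56 members the sum varied by less than 1/3 as much as the member alone. A sum of several rows is steadier than a small row even when the rows vary independently, so the variance of each sum was also divided by the summed variances of its rows, a ratio of about 1 for rows that vary independently and below 1 where rows move in opposite directions. The ratio had a median of 0.669, was under 1 in 38 of 54 members and was under 0.5 in 23. FPKM are scaled by length, so a sum over rows of unequal length is not a total of reads. Reads listed under a shorter row add more to it.

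**Figure D2:**
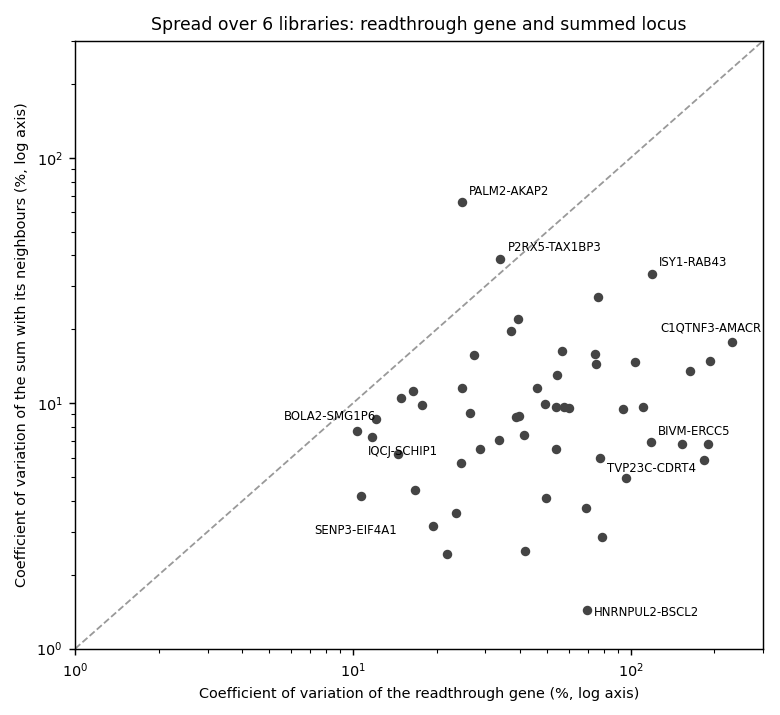
Coefficient of variation over the 6 libraries of each of 54 readthrough genes (x axis, %) and of its sum with its listed neighbours (y axis, %), both on log axes, with the dashed line at equality. Points lie below the line for 52 genes and above it for PALM2-AKAP2 and P2RX5-TAX1BP3.

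The opposite movement was most marked where a readthrough gene and 1 neighbour traded their listed levels. TVP23C-CDRT4 joins TVP23C, the gene of a Golgi membrane protein, to CDRT4, and was listed at 0.207, 5.14 and 3.29 FPKM in the NC libraries and 6.35, 5.76 and 0.317 FPKM in the OE libraries. CDRT4 was listed at 5.76, 1.74 and 3.02 FPKM in the NC libraries and 0.8002, 1.49 and 5.92 FPKM in the OE libraries. The readthrough gene was lowest and CDRT4 highest in the same libraries, NC 1 and OE 3, while TVP23C stayed between 2.34 and 3.08 FPKM in all 6. The sum of the 3 rows ranged only from 8.53 to 9.96 FPKM (6.01% against 77.4% for the readthrough gene), and the variance ratio of the pair was 0.0229.

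BIVM-ERCC5 showed the same trade with ERCC5, the gene of the nuclease XPG of nucleotide excision repair. The readthrough gene was listed at 2.47, 8.26 and 1.07 FPKM in the NC libraries and 0.00216, 0.00782 and 8.82 FPKM in the OE libraries. ERCC5 stood at 10.7, 5.33 and 10.2 FPKM in the NC libraries and 11.3, 11.4 and 4.59 FPKM in the OE libraries. ERCC5 was lowest in NC 2 and OE 3, the libraries in which BIVM-ERCC5 was highest, and the 3 rows summed to 13.5 to 15.96 FPKM. Read on its own, the ERCC5 row differed by more than 2-fold between libraries of the OE group.

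PRR5-ARHGAP8 joins PRR5, a subunit gene of the kinase complex mTORC2, to ARHGAP8. It was listed at 0.565, 0.814 and 0.391 FPKM in the NC libraries and 3.42, 0.813 and 4.07 FPKM in the OE libraries. ARHGAP8 was listed at 10.4, 9.61 and 10.4 FPKM in the NC libraries and 7.26, 10.1 and 7.71 FPKM in the OE libraries, and was lowest in OE 1 and OE 3, the libraries highest for the readthrough gene. The pair had a variance ratio of 0.0462, and the 3 rows summed to 11.4 to 13.2 FPKM.

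Abundant genes were part of such pairs as well. SENP3-EIF4A1 joins a SUMO protease gene to the gene of the RNA helicase of translation initiation, and was listed at 10.99, 15.8 and 20.1 FPKM in the NC libraries and 18.6, 19.2 and 18.1 FPKM in the OE libraries. EIF4A1 was listed at 44, 36.5 and 34.3 FPKM in the NC libraries and 34.8, 34.2 and 35.9 FPKM in the OE libraries, with its highest value in NC 1, where the readthrough gene was lowest. The pair summed to 52.3 to 54.98 FPKM with a variance ratio of 0.0348. For TMEM189-UBE2V1, which joins a plasmanylethanolamine desaturase gene to the gene of a ubiquitin-conjugating enzyme variant, OE 1 stood apart. Its levels were 11.6, 7.002 and 11.2 FPKM in the NC libraries and 22.5, 9.56 and 7.33 FPKM in the OE libraries, while UBE2V1 was at 36.4, 40.9 and 37.7 FPKM in the NC libraries and 31.7, 37.9 and 38.4 FPKM in the OE libraries, lowest in OE 1. The sum with both neighbours ranged from 53.4 to 59.4 FPKM.

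**Figure D3:**
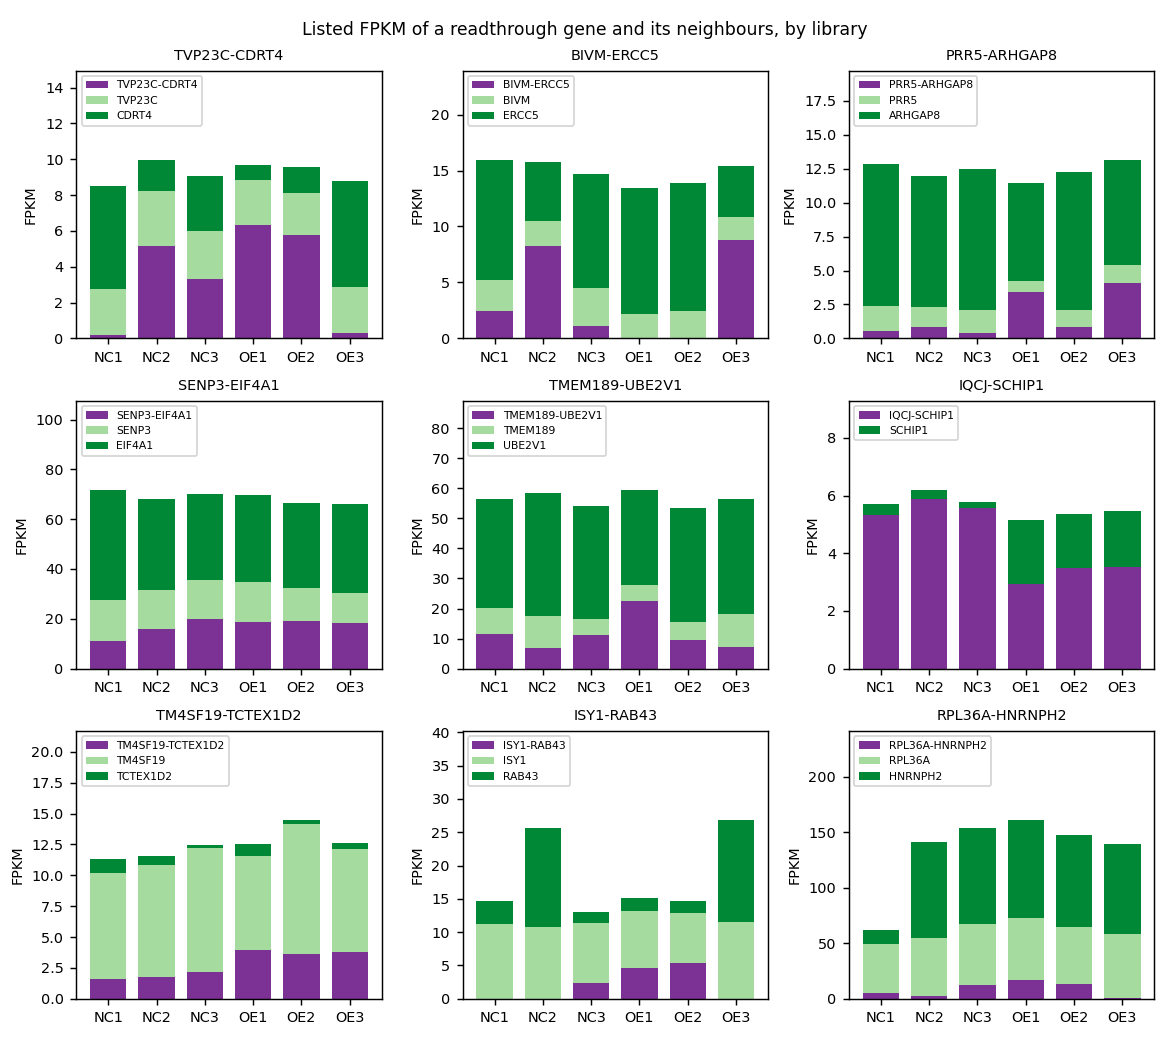
Stacked bars of the listed FPKM of a readthrough gene (purple), its upstream neighbour (light green) and its downstream neighbour (dark green) in each of the 6 libraries, for 9 loci. In TVP23C-CDRT4, BIVM-ERCC5, PRR5-ARHGAP8, SENP3-EIF4A1, TMEM189-UBE2V1 and IQCJ-SCHIP1 the colours shift while the bar heights stay close, whereas ISY1-RAB43 and RPL36A-HNRNPH2 keep a spread in the total. IQCJ has no row.

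Among the other members named for a steady sum, the trade was with the upstream neighbour in some and the downstream neighbour in others. In the 43 loci with 3 rows, the lower pair ratio was with the downstream gene in 24. CHURC1-FNTB, whose downstream partner encodes the beta subunit of farnesyltransferase, was listed at 6.26, 4.01 and 3.49 FPKM in the NC libraries and 4.56, 5.46 and 4.202 FPKM in the OE libraries. Its partner was the upstream CHURC1, listed at 6.63, 10.1 and 10.5 FPKM in the NC libraries and 9.99, 9.37 and 9.74 FPKM in the OE libraries, which was lowest in NC 1 where the readthrough gene was highest. The pair ratio was 0.147 with CHURC1 and 1.51 with FNTB, and the 3 rows summed to 21.7 to 23.1 FPKM. In ARL2-SNX15 (a tubulin folding GTPase gene and a sorting nexin gene), the readthrough gene was listed at 1.99, 0.0954 and 0.205 FPKM in the NC libraries and 1.78, 0.765 and 2.08 FPKM in the OE libraries. ARL2, at 13.9 to 17.7 FPKM, gave a pair ratio of 0.292, and the sum of the locus ranged from 19.7 to 21.2 FPKM. ANKHD1-EIF4EBP3, outside the naming rule and chosen after its values were seen, exceeded ANKHD1 in all 6 libraries, at 5.63 to 7.31 against 2.88 to 5.18 FPKM, with a pair ratio of 0.169.

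Several members were close to 0 in most libraries and appeared in only 1 or a few. Since no listed gene averages under 0.5 FPKM in both groups, such a row is listed only where some library is high. The pattern is therefore partly fixed by which genes are listed. C1QTNF3-AMACR, whose downstream partner encodes the racemase of branched-chain fatty acid oxidation, was listed at 0, 0.103 and 0.00627 FPKM in the NC libraries and 0.0651, 3.77 and 0 FPKM in the OE libraries. AMACR ranged from 3.52 to 4.74 FPKM and had its lowest value in OE 2, the library with the high readthrough value. PTGES3L-AARSD1 was listed at 0.888, 0.0596 and 0.284 FPKM in the NC libraries and 3.15, 0.0442 and 0.0603 FPKM in the OE libraries, and AARSD1, a gene of an alanyl-tRNA editing protein, at 2.12, 3.47 and 3.41 FPKM in the NC libraries and 1.43, 3.67 and 3.69 FPKM in the OE libraries. Again the lowest AARSD1 level was in the library with the highest readthrough level, OE 1. TMEM256-PLSCR3 reached 2.27 FPKM in NC 1 and at most 0.216 FPKM in the other libraries, and its upstream partner TMEM256 was lowest in NC 1, at 9.88 FPKM against 13.2 to 19.4 FPKM. GPR75-ASB3 reached 2.74 FPKM in NC 1 and at most 0.313 FPKM elsewhere, and ASB3 was lowest in NC 1, at 1.55 FPKM against 2.51 to 3.29 FPKM. RAB4B-EGLN2, whose downstream gene encodes an oxygen-sensing prolyl hydroxylase, was listed at 0, 0.0725 and 0.497 FPKM in the NC libraries and 0, 2.07 and 0.0398 FPKM in the OE libraries. It shares RAB4B, a gene of a vesicle traffic GTPase, with MIA-RAB4B, which was listed at 1.17, 0 and 1.39 FPKM in the NC libraries and 1.27, 0.749 and 0.794 FPKM in the OE libraries. RAB4B itself held between 2.78 and 3.66 FPKM, so both readthrough rows varied more than the gene they share.

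ATP5J2-PTCD1, TGIF2-C20orf24 and ABHD14A-ACY1 were high in only 1 or 2 libraries too. ATP5J2-PTCD1, with an ATP synthase subunit gene upstream and a mitochondrial RNA-binding protein gene downstream, was listed at 0.995, 0.971 and 0.894 FPKM in the NC libraries and 5.41, 1.195 and 0.964 FPKM in the OE libraries. PTCD1 was listed at 3.25, 3.13 and 2.94 FPKM in the NC libraries and 1.13, 2.84 and 2.93 FPKM in the OE libraries. The drop of PTCD1 in OE 1 fell in the library with the high readthrough value, but the sum of the locus followed ATP5J2, at 34.8 to 54.5 FPKM, and its variance ratio was 1.14. TGIF2-C20orf24 reached 1.72 FPKM in OE 3, where TGIF2, a homeobox repressor gene, was at 0.632 FPKM against 3.003 to 5.75 FPKM elsewhere. ABHD14A-ACY1, with an aminoacylase gene downstream, stood at 0.466, 0.0975 and 1.71 FPKM in the NC libraries and 0.0774, 1.36 and 0.155 FPKM in the OE libraries, and ACY1 was lowest in NC 3 and OE 2, at 1.72 and 1.29 FPKM, the libraries with the 2 highest readthrough values.

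Members joined to ribosomal protein genes were small beside them. RPL17-C18orf32 was listed at 6.73, 0 and 10.1 FPKM in the NC libraries and 9.23, 8.32 and 1.83 FPKM in the OE libraries, against 123 to 133 FPKM for RPL17. C18orf32 was highest in NC 2 and OE 3, at 4.76 and 2.87 FPKM, the libraries in which the readthrough gene was lowest. RPS10-NUDT3 made up between 0.0547 and 0.968% of the sum of its locus, which RPS10 dominated at 159.6 to 193 FPKM, and its variance ratio was 0.918. RPL36A-HNRNPH2 was listed at 5.03, 2.59 and 12.5 FPKM in the NC libraries and 17.3, 13.5 and 1.101 FPKM in the OE libraries. HNRNPH2, a splicing regulator gene, was at 12 FPKM in NC 1 against 81.2 to 87.95 FPKM in the other 5 libraries, and neither RPL36A (44.5 to 56.98 FPKM) nor the readthrough gene was high in NC 1. The summed locus therefore ranged from 61.5 to 161 FPKM. Ribosomal protein genes have many processed pseudogenes, so their own levels may hold reads of copies.

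The other members named for a steady sum had locus ratios both below and above 1. HNRNPUL2-BSCL2 (an hnRNP U-like gene and the seipin gene) ranged from 0.178 to 2.09 FPKM beside a sum of 77.6 to 80.6 FPKM, the steadiest of the 54 sums at 1.43%, of which HNRNPUL2 made up most. RBM14-RBM4 joins 2 RNA-binding protein genes and was listed at 6.21, 3.96 and 3.36 FPKM in the NC libraries and 2.13, 3.09 and 5.94 FPKM in the OE libraries. Its sum ranged from 16.3 to 20.7 FPKM with a variance ratio of 0.502. SYS1-DBNDD2 ranged from 0.565 to 1.69 FPKM with a pair ratio of 0.225 against DBNDD2 and 0.362 for the locus. RNASEK-C17orf49 ranged from 4.72 to 9.05 FPKM, and its ratio was 0.398 with RNASEK and 0.533 for the locus. ZHX1-C8orf76 reached 2.55 FPKM in NC 2, where both ZHX1 and C8orf76 had their lowest values of 1.90 and 4.40 FPKM. MSANTD3-TMEFF1 ranged from 0.901 to 3.13 FPKM and gave a ratio of 0.234 with TMEFF1 and 0.516 for the locus. UBE2F-SCLY joins the gene of a NEDD8-conjugating enzyme to that of selenocysteine lyase, ranged from 0.675 to 1.66 FPKM and gave a ratio of 0.288 with SCLY but 1.23 with UBE2F and 1.06 for the whole locus. C7orf55-LUC7L2 reached 9.99 FPKM in OE 3 and 1.77 to 4.82 FPKM elsewhere, and LUC7L2, a splicing factor gene, ranged from 12.8 to 16.1 FPKM with its lowest value in OE 3 (ratio 0.751). PPAN-P2RY11 and TRIM39-RPP21, joined to a ribosome biogenesis gene and a ubiquitin ligase gene respectively, were listed at 0 to 1.52 FPKM and 0 to 1.49 FPKM. TRIM39-RPP21 was at 0 in NC 1, and its pair ratio with RPP21, an RNase P subunit gene, was 0.202, against 0.839 for the locus.

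Low-level members with a steady sum did not all trade with a neighbour. CORO7-PAM16, C15orf38-AP3S2, ARPC4-TTLL3, CKLF-CMTM1, PPT2-EGFL8 and TMEM56-RWDD3 each had a mean under 1 FPKM, with variance ratios of 0.668, 1.504, 0.719, 0.8697, 1.17 and 1.73. In C15orf38-AP3S2 and TMEM56-RWDD3 the readthrough gene moved with its listed neighbours, with pair ratios of 1.504 with AP3S2, 1.48 with TMEM56 and 1.56 with RWDD3. PPT2-EGFL8 had pair ratios below 1 with both neighbours (0.717 with PPT2 and 0.521 with EGFL8), although the ratio of its whole locus was above 1.

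In some loci the sum kept a wide spread. ISY1-RAB43, with a spliceosome factor gene upstream and a RAB GTPase gene downstream, was listed at 0, 0 and 2.43 FPKM in the NC libraries and 4.59, 5.41 and 0 FPKM in the OE libraries. RAB43 was listed at 3.52, 14.9 and 1.62 FPKM in the NC libraries and 1.99, 1.85 and 15.3 FPKM in the OE libraries. RAB43 was at 14.9 and 15.3 FPKM in NC 2 and OE 3, where the readthrough gene was at 0, but it was at 3.52 FPKM in NC 1, where the readthrough gene was at 0 too, and the sum ranged from 12.96 to 26.8 FPKM. The clearer trade was with the upstream ISY1, listed at 11.2, 10.7 and 8.91 FPKM in the NC libraries and 8.52, 7.42 and 11.5 FPKM in the OE libraries. ISY1 was lower in the 3 libraries with the readthrough gene above 0 than in the 3 at 0, and that pair summed to 10.7 to 13.1 FPKM with a ratio of 0.105, against 0.543 with RAB43. In PALM2-AKAP2 the readthrough gene was low, at 0.335 to 0.637 FPKM, while AKAP2, a gene of a protein kinase A anchoring protein, was listed at 1.25, 14.4 and 11.2 FPKM in the NC libraries and 12.8, 11.8 and 0.624 FPKM in the OE libraries. P2RX5-TAX1BP3 was likewise low, at 0.407 to 1.47 FPKM, beside TAX1BP3 at 24.6, 35.3 and 70.3 FPKM in the NC libraries and 36.3, 68.6 and 68.8 FPKM in the OE libraries. With the upstream P2RX5, at 1.46 to 2.48 FPKM, the readthrough gene did trade, with a pair sum of 2.71 to 3.42 FPKM and a ratio of 0.202, but TAX1BP3 made up most of the locus. PALM2-AKAP2 and P2RX5-TAX1BP3 were the 2 members whose sum varied more than the readthrough gene itself. BCL2L2-PABPN1 ranged from 1.24 to 4.35 FPKM, and BCL2L2, a survival gene of the BCL2 family, was listed at 12.1, 0.859 and 2.77 FPKM in the NC libraries and 0.648, 2.83 and 12.1 FPKM in the OE libraries, with no opposite movement in the readthrough gene (pair ratio 1.09). PALM2-AKAP2, P2RX5-TAX1BP3 and BCL2L2-PABPN1 lie outside the naming rule and were chosen after their values were seen.

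The remaining members are given by their range. BORCS8-MEF2B, DNAJC25-GNG10, TMED7-TICAM2, CHKB-CPT1B, SAA2-SAA4, ST20-MTHFS, TNFSF12-TNFSF13 and PMF1-BGLAP had coefficients of variation from 11.8% (CHKB-CPT1B) to 39.3% (PMF1-BGLAP), and sums with coefficients from 7.27% to 22.1%. Their variance ratios ran from 0.444 in BORCS8-MEF2B to 1.44 in DNAJC25-GNG10.

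The same ratio was computed for pairs of rows across the table in which both rows had a mean of at least 1 FPKM. Of the 62 pairs of a readthrough gene and a component, 23 (37.1%) had a ratio under 0.5 and 13 (21.0%) a ratio under 0.25, with a median of 0.723. Of 322 other pairs of overlapping genes on the same strand, 12.1% were under 0.5 and 4.66% under 0.25, with a median of 0.983. Of 9868 pairs of adjacent genes on the same strand that did not overlap, 4.66% were under 0.5 and 0.892% under 0.25, with a median of 1.03. The other overlapping pairs were taken by the start and end of the genes, so they need not share exon bases. The kinds of pair were not matched for the spread of their rows. These shares describe the 6 libraries and carry no test, since pairs at 1 locus share rows and the ratio was chosen after the data were seen.

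The second question was whether readthrough genes or their neighbours differed between OE and NC. The values were compared with limma on log2(FPKM + 1) over all 11042 genes that averaged 1 FPKM or more, and p-values were adjusted over all of them. None of the 38 members tested passed an adjusted p of 0.05. That threshold was passed by 0.0634% of all genes tested (7 genes, 0.0362% higher and 0.0272% lower). In a fit in the style of Ballgown, 0 of the 38 passed it. At an unadjusted p below 0.05 there were 5 of the 38 members, 3 higher and 2 lower in OE, against 3.61% of all genes (1.63% higher and 1.98% lower). By a fold of at least 1.5 with an unadjusted p below 0.05, 4 of the 38 members differed, 2 higher and 2 lower, against 0.516% of all genes (0.272% higher and 0.245% lower). The groups did not overlap in 3 of the 38 members, a share of 7.89% against 8.76% of all genes. Members and components together made up 1.20% of the genes tested and 10.5% of those that met the fold rule (6 of 57). The members tested had a median coefficient of variation of 37.7%, the components 14.9% and all genes tested 8.34%. The shares take no account of this wider spread and carry no test. Among the 94 components tested, SCHIP1 passed the adjusted threshold, and SCHIP1 and TEN1 met the fold rule. Their NC means of 0.304 and 0.573 FPKM were under 1 FPKM, so they were tested only through their OE levels. Among the members with an unadjusted p below 0.05, the same held for PRR5-ARHGAP8 (NC mean 0.59 FPKM) and SYS1-DBNDD2 (0.748 FPKM). It held for other tested members too, such as ARL2-SNX15 (0.764 FPKM) and ISY1-RAB43 (0.81 FPKM). UBE2F-SCLY and RPS10-NUDT3 were tested only through their NC levels, with OE means of 0.876 and 0.936 FPKM. The counts above include these rows.

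IQCJ-SCHIP1 encodes a protein known in mice from the axon initial segment of neurons, and its downstream component SCHIP1 encodes a binding partner of the NF2 tumour suppressor. The readthrough gene (ENSG00000283154) was listed at 5.32, 5.88 and 5.55 FPKM in the NC libraries and 2.92, 3.49 and 3.53 FPKM in the OE libraries. Its log2 fold change was -0.61 (SE 0.08, adjusted p = 0.149 in limma). SCHIP1 was listed at 0.3698, 0.304 and 0.239 FPKM in the NC libraries and 2.23, 1.89 and 1.94 FPKM in the OE libraries, and rose by 1.21 on the log2 scale (SE 0.08, adjusted p = 0.0104 in limma), with every OE library above every NC library. The 2 rows summed to 5.15 to 6.19 FPKM. When the sum replaced the rows in the fit, its log2 fold change was -0.12 (95% confidence interval -0.26 to 0.02, unadjusted p = 0.0756 in limma). The share of the locus listed under the readthrough gene ran from 56.8 to 95.9% and was below that of every NC library in every OE library. The call of SCHIP1 thus came with an opposite difference in the overlapping row. It was lost without NC 3 (adjusted p = 0.0651 in limma), and without OE 1 the mean of SCHIP1 fell below the level tested. The call was also lost with the replicate number as a block in limma (adjusted p = 0.0889). It was lost too in the Ballgown-style fit (adjusted p = 0.311). IQCJ, the upstream neighbour, has no row.

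TM4SF19-TCTEX1D2 (ENSG00000273331) joins a tetraspan membrane protein gene to the gene of a dynein light chain of cilia. It was listed at 1.61, 1.77 and 2.17 FPKM in the NC libraries and 3.99, 3.63 and 3.77 FPKM in the OE libraries, with no overlap between the groups. The log2 fold change was 0.75 (SE 0.09, adjusted p = 0.105 in limma). TM4SF19 itself (ENSG00000145107) was listed at 8.55, 9.09 and 10.0 FPKM in the NC libraries and 7.55, 10.5 and 8.34 FPKM in the OE libraries, with overlapping groups and a log2 fold change of -0.07. TCTEX1D2 was under the level tested, at 0.294 to 1.18 FPKM. The sum ranged from 11.3 to 14.4 FPKM, with every OE library above every NC library by a narrow margin, and had a log2 fold change of 0.15 (unadjusted p = 0.0811 in limma).

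HSPE1-MOB4 (ENSG00000270757) joins the gene of the mitochondrial chaperonin cofactor to that of a subunit of the STRIPAK phosphatase complex. It was listed at 4.36, 3.91 and 3.45 FPKM in the NC libraries and 2.48, 1.17 and 1.26 FPKM in the OE libraries, again without overlap, with a log2 fold change of -0.93 (SE 0.19, adjusted p = 0.801 in limma). HSPE1 (ENSG00000115541) was listed at 28.4, 36.3 and 39.9 FPKM in the NC libraries and 36.3, 41.3 and 34.3 FPKM in the OE libraries, far above the readthrough gene, with overlapping groups and a log2 fold change of 0.10. MOB4 was at 4.29 to 8.84 FPKM. The sum ranged from 37.1 to 49.7 FPKM, with a log2 fold change of 0.05 (unadjusted p = 0.639 in limma).

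PRR5-ARHGAP8 met the fold rule with groups that overlapped, since OE 2, at 0.813 FPKM, lay within the NC range. Its log2 fold change was 1.12 (SE 0.38, adjusted p = 1 in limma), and that of the sum was -0.01 (95% confidence interval -0.17 to 0.14). Without OE 2, the readthrough gene alone passed the adjusted threshold (log2 fold change 1.58, adjusted p = 0.0453 in limma). TEN1, a subunit gene of the telomere-protecting CST complex, was listed at 0.441, 0.684 and 0.594 FPKM in the NC libraries and 1.49, 1.15 and 1.77 FPKM in the OE libraries. Its log2 fold change was 0.65 (SE 0.11, adjusted p = 0.401 in limma), while TEN1-CDK3, which joins it to the gene of a cyclin-dependent kinase, had -0.32 and the sum of the 3 rows 0.19. SYS1-DBNDD2 was the fifth member with an unadjusted p below 0.05, with a log2 fold change of 0.39 and overlapping groups.

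**Figure D4:**
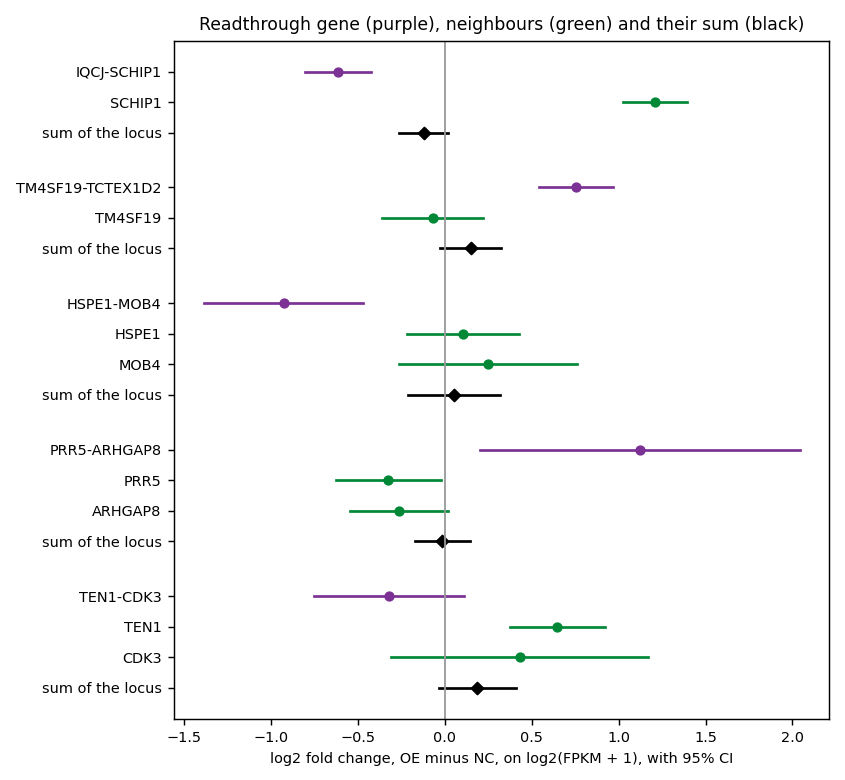
log2 fold change between OE and NC on log2(FPKM + 1) with its 95% confidence interval from limma, for the 5 loci in which a row met the fold rule, with the readthrough gene in purple, its tested neighbours in green and the summed locus in black. The sums of the 5 loci lie between the rows and their intervals include 0. TCTEX1D2 is under the level tested and IQCJ has no row.

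No summed locus differed between the groups by either rule. Of the 53 loci (members that share RAB4B counted as 1), 0 sums had a fold of 1.5 between the group means, and in the limma fit in which each sum replaced its rows 0 had an unadjusted p below 0.05, with the lowest at 0.0692, while 6 of the 10967 genes or sums in that fit passed the adjusted threshold. The ratio of the OE to the NC mean passed 1.5-fold for PALM2-AKAP2 without NC 1 (0.666) and for P2RX5-TAX1BP3 without NC 3 (1.85) or without OE 1 (1.55). The log2 fold changes of the 53 sums ran from -0.21 to 0.45. An exact permutation test of 3 against 3 libraries cannot give a p below 0.1. The groups of 5 sums did not overlap, among them IQCJ-SCHIP1, TM4SF19-TCTEX1D2 and ARL2-SNX15, a share close to the 8.76% of all genes tested.

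The machinery that ends transcription and the pathway that degrades faulty readthrough RNAs were measured in the same libraries. All 28 genes of a list of cleavage, polyadenylation and termination factors were tested. Their median log2 fold change was 0.01, against -0.01 for all genes, and by limma 0 passed the adjusted threshold and 1 (3.57%) had an unadjusted p below 0.05, shares near the 0.0634% and 3.61% of all genes tested. That gene was PPP1CB, a catalytic subunit of protein phosphatase PP1. It was listed at 51.1, 22.7 and 20.0 FPKM in the NC libraries and 60.9, 58.6 and 57.4 FPKM in the OE libraries. Its log2 fold change was 1.02, without overlap between the groups. PPP1CB was also the only gene of the list to meet the fold rule (3.57%, against 0.516% of all genes). NC 1 was close to the OE libraries and the other NC libraries were well below. Of the 20 genes of nonsense-mediated decay, all tested with a median of 0.01, 0 passed the adjusted threshold by limma and UPF3A, a paralog of the exon junction factor UPF3B, was the only 1 (5.00%, against 3.61% of all genes) with an unadjusted p below 0.05, with a log2 fold change of -0.26. The gene with the next smallest p was WDR82 in the first list, at 0.13, and the helicase gene DHX34 in the second, at 0.13, both on the log2 scale. Without NC 1, PPP1CB passed the adjusted threshold (adjusted p = 0.0074 in limma).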

How the data were processed

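RNA-seq of 3 OE and 3 NC libraries was re-analysed from 1 deposited table, with groups taken from the sample labels. It holds FPKM, as the authors deposited them, for 12154 genes marked protein-coding. The methods name StringTie for read trimming, HISAT2 for alignment to GRCh37 and Ballgown for the FPKM. HISAT2 2.0.5 and featureCounts 1.5.0-p3 appear in the processing notes of the submitters. Which annotation release they used was not given in the sources used here. No listed gene averages under 0.5 FPKM in both groups, so weaker genes are not measured. The table holds no counts, the depth per library is unknown, and no counting error can be given.

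log2(FPKM + 1) was compared with limma 3.58.1 in R 4.3.3 over genes that averaged 1 FPKM or more, with Benjamini-Hochberg adjustment and a threshold of 0.05. A fold change is on this scale, which understates low genes. Sums added the FPKM of a member and its listed components, and rows that share bases may count the same reads. Exon structure and junctions came from GENCODE 44 on GRCh37, which may not be the release used by the authors: of 152 rows matched by identifier, 81 had the same start and end. Sequences were read with pysam 0.24.0. The fit was tested on simulated data. The members, the lists and the tests were chosen with earlier results of these data known. Named members were those past either call, the 10 with the largest range at a mean of at least 1 FPKM, the 5 highest, and those whose sum varied by less than 1/3 as much as the member. Alternatives were another pseudocount, filter, scaling or model, a replicate block and leaving out each library. The values of 1 member are not reported here.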

Additional observations from a re-analysis of the deposited data

How the results depend on the processing

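Over the settings tried, the share of members with a steadier sum than their own row stayed between 91.1% and 97.7% (96.4% as reported). A small row added to larger, steadier rows gives a steadier sum in almost any setting, so this share could hardly change. The variance ratio was not recomputed over the settings. The count of members past the adjusted threshold was 0 to 1 when 1 library was left out, with PRR5-ARHGAP8 called without OE 2. The count at a fold of 1.5 was 0 with a filter at 5 FPKM, where the 4 members are no longer tested, and 2 to 5 when 1 library was left out, the lowest without OE 1. TM4SF19-TCTEX1D2 and HSPE1-MOB4 met the fold rule whichever library was left out, IQCJ-SCHIP1 did not without NC 2 or OE 1, and PRR5-ARHGAP8 did only without NC 2 or OE 2. The Ballgown-style fit had 3, ARL2-SNX15 in place of HSPE1-MOB4 and PRR5-ARHGAP8. In that fit HSPE1-MOB4 had an unadjusted p of 0.0704. The paper, which names Ballgown, lists the same gene identifier as significantly lower, under the name HSPE1. It also lists SCHIP1, IQCJ-SCHIP1, TEN1 and, under the name TM4SF19, the identifier of TM4SF19-TCTEX1D2. PRR5-ARHGAP8 and ARL2-SNX15 are not in its list. The Ballgown-style fit is thus not the fit of the authors, and why they differ was not tested. The count of called components (1, SCHIP1) was 0 with the filter at 5 FPKM, in the Ballgown-style fit (adjusted p = 0.311) and with a replicate block (adjusted p = 0.0889 in limma), and 0 to 1 when 1 library was left out. Same-numbered libraries did not deviate together (correlations of -0.0134, 0.0106 and -0.0054), so the numbers were not taken to pair the samples, and with the block 1 gene of all tested was called in place of 7. Over all genes, the calls were 0 in the Ballgown-style fit and 1 to 18 when 1 library was left out, and the genes at a fold of 1.5 were 57 as reported and 29 with the filter at 5 FPKM. The count of called pathway genes was 0 to 1 when 1 library was left out. The sums at a fold of 1.5 were 0 to 1, with PALM2-AKAP2 past it without NC 1 (0.666 of the NC mean) and P2RX5-TAX1BP3 without NC 3 (1.85) or OE 1 (1.55). The sign of the log2 fold change turned for HSPE1, at -0.109 in the Ballgown-style fit and -0.0323 to 0.205 when 1 library was left out (negative without NC 1), and for TM4SF19, at -0.19 to 0.0248 (positive without OE 1). The cause of these changes was not tested. Fitting summed loci and the variance ratio were added after seeing the data.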

Other observations

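Trades of listed levels also occurred between overlapping same-strand genes whose names hold no hyphen. The 3 pairs below were chosen after their values were seen. MYO18A, an unconventional myosin gene, and TIAF1, a small gene within it, summed to 11.8 to 12.5 FPKM in the 6 libraries. TIAF1 was at 4.32 FPKM in NC 3 and 0.923 to 1.61 FPKM in the others, and MYO18A was lowest in NC 3, at 7.82 FPKM. The variance ratio of the pair was 0.0206.

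SRCAP, the catalytic subunit gene of a chromatin remodeller that deposits the histone variant H2A.Z, overlaps the row AC106886.5. SRCAP was listed at 13.4, 11.4 and 10.6 FPKM in the NC libraries and 4.80, 5.24 and 12.4 FPKM in the OE libraries. AC106886.5 was listed at 6.28, 6.37 and 7.19 FPKM in the NC libraries and 14.3, 14.4 and 6.75 FPKM in the OE libraries. The 2 rows summed to 17.7 to 19.7 FPKM, and OE 3 resembled the NC libraries in both. RAD50, a DNA repair gene, was at 1.55 FPKM in NC 2 and 4.34 FPKM in OE 2 against 10.9 to 14.9 FPKM in the others, and AC116366.3, which overlaps it, was at 12.8 and 10.1 FPKM in those libraries and at most 0.503 FPKM elsewhere.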
